A study of Mus musculus with 12 samples.

Results

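The mRNAs of 40 complement, coagulation and fibrinolysis proteins that hepatocytes secrete were followed in mouse liver with and without Gdown1, a protein that binds RNA polymerase II and is the product of the gene Polr2m. The genes are 17 of the complement system and 23 of coagulation and fibrinolysis, taken by symbol from the 23420 genes of the deposited count tables. All 40 were found and all 40 passed the filter on low counts; the lowest count of any of them in any library was 147. RNA sequencing covered 12 libraries of whole liver from C57BL/6 mice, in 6 groups of 2. Every group carries floxed Gdown1 alleles. KO livers are Gdown1 flox/flox with Alb-Cre, a recombinase gene driven by the albumin promoter and so active in hepatocytes, and FF livers are Gdown1 flox/flox without Cre, both at 7 weeks. DKO livers carry the same Cre in Gdown1 flox/flox mice that are also labelled p53-/-, and p53KO livers are Gdown1 flox/flox and p53-/- without Cre, both at 8 weeks. DKO TAM livers are Gdown1 flox/flox and p53-/- and carry Alb-CreERT2, a form of the Cre that tamoxifen activates, and p53KO TAM livers have the genotype of p53KO livers; both were taken 24 hours after tamoxifen, at an age that is not given in the sources used here. Cre is present in each deleted group and absent from its control group, so effects of Cre and of Gdown1 loss cannot be told apart, and loss of Gdown1 was not measured by cell type. Nothing in the labels states that the 2 libraries of a group come from separate animals, so p-values reflect only how these libraries differ, which may be technical. Titles of the KO, FF, DKO TAM and p53KO TAM libraries each hold a different number after the letters No, whose meaning is not given. Those of same-numbered KO and FF libraries lie close to each other. The DKO libraries are numbered 2 and 3 in their titles, and those numbers name them here; their descriptions number them 1 and 2.

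Complement is a cascade of plasma proteases that marks and lyses microbes. The lectin pathway starts it on sugar surfaces, the convertases built from C4 and C3 amplify it, and the terminal proteins C5 to C9 assemble a pore in the membrane; inhibitors such as factor I, C4-binding protein and vitronectin hold it back. Coagulation runs through vitamin K-dependent proteases to thrombin, which turns fibrinogen into fibrin, and plasmin, made from plasminogen, dissolves the clot. Hepatocytes make nearly all of these proteins in plasma, and fibrinogen and C3 are among those whose synthesis rises in the acute phase response to injury and infection.

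Library totals lay between 4939408 and 8776369 counts. Levels below are in CPM, counts scaled to a common library size, here by TMM, which takes most genes as unchanged, and calls are adjusted p-values under 0.05 from edgeR's quasi-likelihood test over 13693 genes. Log2 fold changes are given ± SE, deleted livers over their controls. Polr2m stood at 64.7 and 59.4 CPM in KO livers, against 100.3 and 96.7 CPM in FF livers (adjusted p = 0.0024), at 58.1 and 59.99 CPM in DKO livers, against 89.1 and 103 CPM in p53KO livers (2.4e-04), and at 65.9 and 54.6 CPM in DKO TAM livers, against 75.9 and 78.7 CPM in p53KO TAM livers (0.063, short of the threshold). Trp53, the p53 gene, stood at 17.1 and 22.5 CPM in KO livers, against 13.1 and 7.94 CPM in FF livers (adjusted p = 0.013), at 8.39 and 8.13 CPM in DKO livers, against 3.07 and 2.79 CPM in p53KO livers (5.0e-04), and at 8.96 and 10.01 CPM in DKO TAM livers, against 3.79 and 3.97 CPM in p53KO TAM livers (0.0039). It was called higher in each deleted group, and the DKO and DKO TAM libraries lie within the range of the FF libraries and below both KO libraries. Which part of the gene the p53-/- allele lacks is not given in the sources used here, so a count over the whole gene does not check the p53 genotypes, which are those of the labels. Summed over 19 other hepatocyte mRNAs, the level was 78977 to 92662 CPM in KO and 135942 to 136715 in FF, 45668 to 48574 in DKO and 149811 to 154503 in p53KO, and 63519 to 67347 in DKO TAM and 142754 to 146277 in p53KO TAM livers, and none of the 19 was at 0 counts. Alb, the albumin gene, is 1 of the 19 and makes up much of these sums. It stood at 28609 and 32815 CPM in KO and 66287 and 57756 CPM in FF livers. The DKO libraries held 15744 and 19209 CPM of it, against 71558 and 71735 CPM in p53KO. After tamoxifen Alb had 17619 and 16501 CPM in DKO TAM and 72367 and 72970 CPM in p53KO TAM livers. In whole liver, fewer hepatocytes and less mRNA per hepatocyte cannot be told apart. Markers of dividing cells and of some other cell types also moved. Of 10 cell division markers, 7 rose in KO and 6 in DKO TAM livers, with sums of 148 to 155 CPM in KO and 46.5 to 73.4 in FF, and 123 to 164 in DKO TAM and 59.3 to 63.95 in p53KO TAM livers. In KO livers, 2 of 11 macrophage and 2 of 12 stellate cell and fibroblast markers rose, where 6.92% of all tested genes rose. In DKO TAM livers 1 of 11 macrophage markers rose, near the 8.61% of all genes that did. There 5 of 12 endothelial markers fell, where 10.1% of all genes fell. Of 12 stellate cell and fibroblast markers 1 fell and 1 rose in DKO TAM livers. In DKO livers, 10 of 11 macrophage, 12 of 12 stellate cell and fibroblast and 10 of 10 cell division markers rose. Of all tested genes, 25.7% rose and 25.7% fell there. Of 12 endothelial markers 3 fell and 2 rose. Summed macrophage, stellate cell and fibroblast, and cell division markers lay at 1244 to 1317, 1536 to 1624 and 1138 to 1145 CPM in DKO livers. In p53KO livers these sums were 539 to 579.6, 403 to 416 and 59.4 to 68.6 CPM. None of these genes was at 0 counts in either group. Of 8 tested cholangiocyte markers 7 rose there, and the 10 listed summed to 279.6 to 311 CPM in DKO, against 68.2 to 69.5 CPM in p53KO livers, where 1 of them was at 0. The part of these markers in the results was not tested. Scaling by library totals alone moves the median of all tested genes up by 0.26 (log2) in KO, 0.77 in DKO and 0.35 in DKO TAM livers, each against its controls, and upper quartile scaling moves it by 0.02, 0.22 and 0.03.

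The 40 genes together took 5.21% and 5.46% of all counts in the KO libraries, against 6.03% and 5.77% in FF. In DKO libraries the share was 3.35% and 3.27%, against 5.21% and 5.22% in p53KO. DKO TAM libraries held 6.37% and 8.56%, against 8.76% and 8.54% in p53KO TAM. Fibrinogen and C3 moved apart within these totals. After tamoxifen the 3 fibrinogen chains took 3.07% and 4.85% of counts in DKO TAM, against 2.46% and 2.11% in p53KO TAM libraries, while C3 took 0.967% and 1.33% in DKO TAM, against 3.32% and 3.27% in p53KO TAM libraries. Without the fibrinogen chains, the other 37 genes took 3.30% and 3.71% in DKO TAM and 6.30% and 6.43% in p53KO TAM libraries. These shares are on the scale of library totals, without TMM, so each also moves when other abundant mRNAs change. Alb took 1.93% and 1.80% of counts in DKO TAM, against 6.27% and 6.19% in p53KO TAM libraries.

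**Figure D1:**
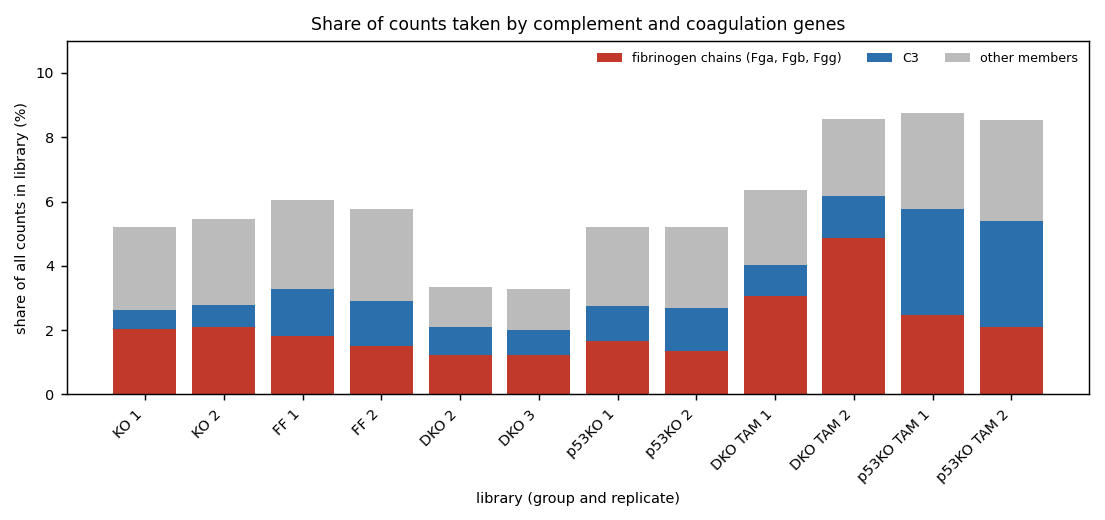
Stacked bars give, for each of the 12 libraries, the percent of all counts that fell on the fibrinogen chains (red), on C3 (blue) and on the other members (grey). Total height is lowest in the DKO libraries (3.35% and 3.27%), and the red part is tallest in the DKO TAM libraries (3.07% and 4.85%).

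Per kilobase of transcript, C3 and the fibrinogen chains were the 4 highest members in every group. In FF livers Fgb averaged 5569 ± 658 CPM per kilobase (SD, n = 2), C3 3176 ± 10.05, Fgg 2838 ± 333 and Fga 1745 ± 53.5, and the lowest were Masp2 at 42.7 ± 2.05 and F7 at 34.1 ± 3.99. The means of C3 and Fgg in FF lay apart by more than the larger of their SDs. Between the 2 untreated control groups, p53KO over FF, the ratio of mean CPM ran from 0.508 to 1.34 over the 40 genes, with a median of 0.909. The tamoxifen-treated controls stood further off for several members. C3 averaged 38416 CPM in p53KO TAM and 14617 CPM in p53KO livers. C6 went the other way, with 115 CPM in p53KO TAM and 504 CPM in p53KO livers. Tamoxifen, age and experiment cannot be told apart in that contrast, and it was not tested.

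In KO livers, which carry no p53 deletion by their labels, part of the complement system and a few clotting factors fell. Of the 40 genes, 15 fell and 2 rose in KO against FF livers, where 7.88% of all tested genes fell and 6.92% rose (14.8% in all). Complement held most of the falls on the TMM scale, where 10 of its 17 members fell and 1 rose. Of the 23 coagulation and fibrinolysis members, 5 fell and 1 rose. The difference between these shares was not tested, and it was smaller with library totals alone. On that scale Masp1, C3, Cfb, C8a and C9 of complement fell, as did F11, Klkb1, Proz and Serpinf2. Mbl2, C6, Cfi, Kng2, Pros1 and Fga rose there. On the TMM scale the median log2 fold change was -0.55 for complement and -0.25 for coagulation and fibrinolysis, beside 0.02 over all tested genes. Over all 40 it was -0.37, and -0.79 over the 19 other hepatocyte mRNAs, of which 11 fell. The groups did not overlap, with KO lower, for 25 members (27.3% of all genes) and, with KO higher, for 7 (28.9%). Calls numbered 9 without FF replicate 2 and 11 without KO replicate 1, and library totals alone gave 9 lower and 6 higher.

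In livers labelled p53-/- with lasting loss of Gdown1, every member was lower. All 40 genes fell in DKO against p53KO livers, and in all 40 both DKO libraries lay below both p53KO libraries, where 25.7% of all tested genes fell, 51.4% changed in either direction, and 37.3% had non-overlapping lower and 39.7% non-overlapping higher values. The log2 fold changes ran from -3.44 for Klkb1 to -0.38 for Pros1, with a median of -1.59, beside 0.01 over all tested genes and -1.65 over the 19 other hepatocyte mRNAs, all of which fell. Library totals alone left 33 lower and 1 higher, with a median of -0.82. At 24 hours after tamoxifen, 29 members fell and 2 rose in DKO TAM against p53KO TAM livers, where 10.1% of all genes fell and 8.61% rose (18.7% in all). The median was -0.72, and -0.67 over the other hepatocyte mRNAs, of which 12 fell. The groups did not overlap, with DKO TAM lower, for 34 members (29.3% of all genes) and, with DKO TAM higher, for 4 (30.2%). Calls numbered 20 without p53KO TAM replicate 2, and library totals alone gave 20 lower and 5 higher.

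**Figure D2:**
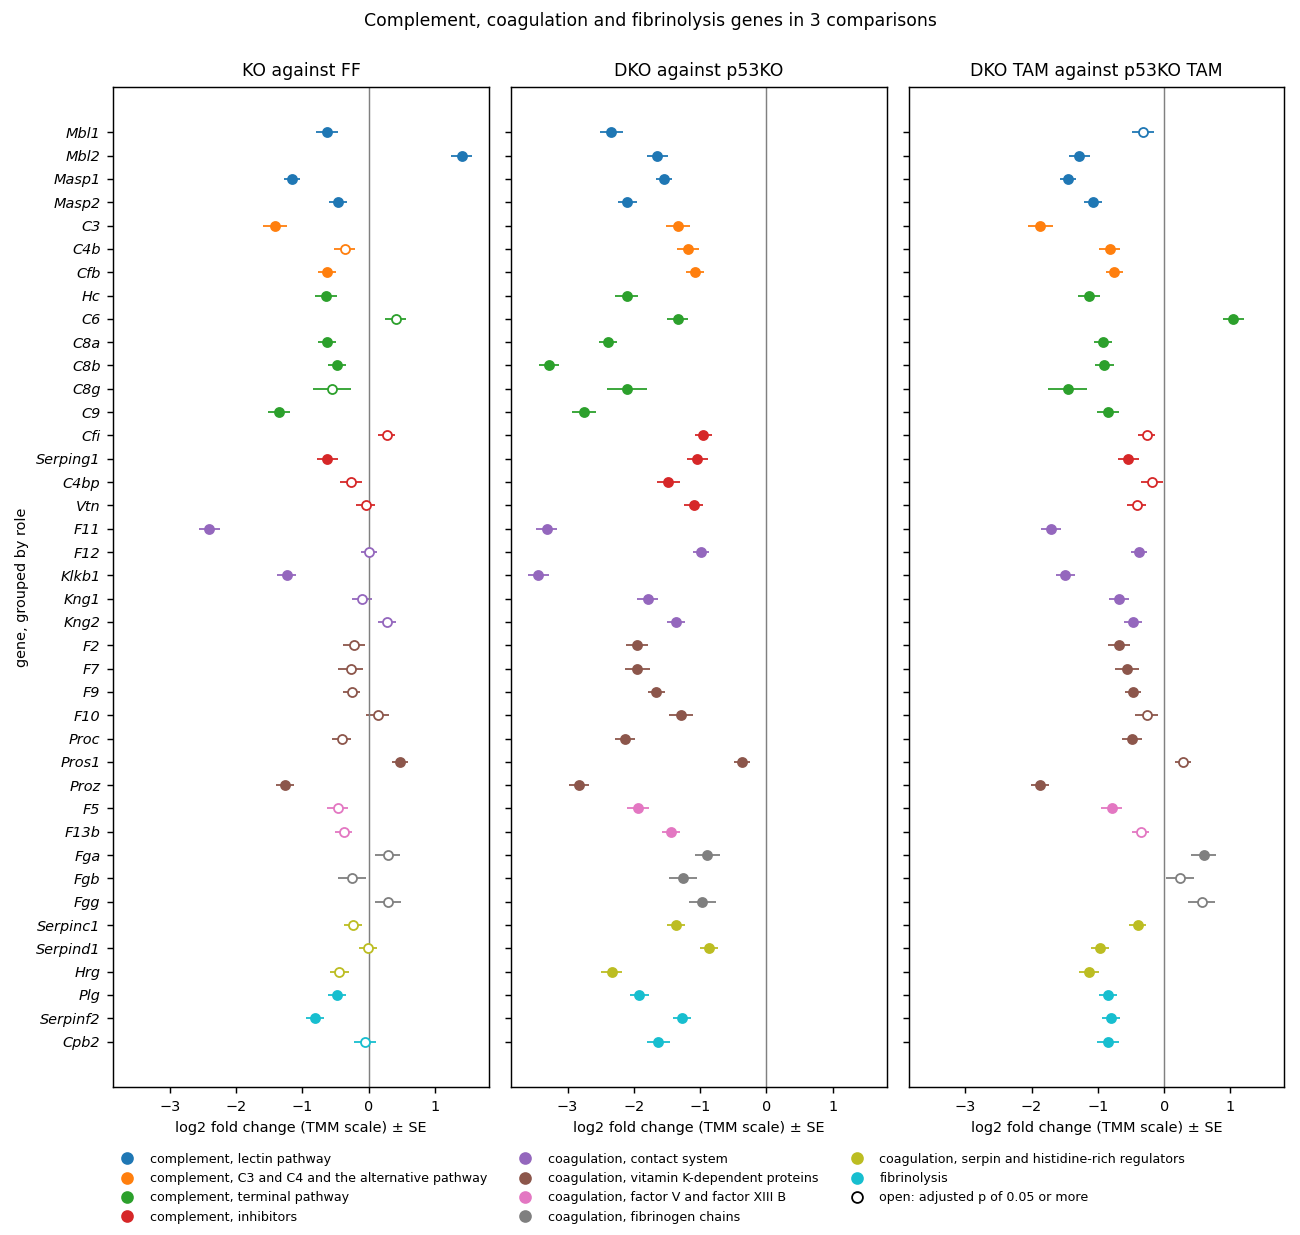
Each point is the log2 fold change of 1 gene on the TMM scale with its SE, in KO against FF (left), DKO against p53KO (middle) and DKO TAM against p53KO TAM livers (right); colours mark the role and open points missed the threshold. In the middle panel all 40 points lie left of 0, between -3.44 and -0.38; on the right, C6, the fibrinogen chains and Pros1 lie right of 0.

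Across the 3 comparisons, 14 genes fell in each: C3, C8a, C8b, C9, Cfb, F11, Hc, Klkb1, Masp1, Masp2, Plg, Proz, Serpinf2 and Serping1. A further 14 fell in DKO and in DKO TAM livers without a call in KO livers, and 7 were called in DKO livers alone. The share of all tested genes with each pattern was not counted. For a fall in each comparison it cannot exceed 7.88%, the share that fell in KO livers. For the next 14 the limit is 10.1%, the share that fell in DKO TAM livers. For a fall in DKO livers alone it is 25.7%, the share that fell there, and 51.4% were called there in either direction. Whether the effects of members differ between comparisons is a separate test, given for named genes below. Mbl2 and Pros1 rose in KO livers and fell in DKO livers, and C6 and Fga fell in DKO livers and rose in DKO TAM livers. Mbl1 fell in KO and DKO livers and missed the threshold in DKO TAM livers.

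Of the 4 lectin pathway genes, all fell in DKO livers, 3 fell in DKO TAM livers, and in KO livers 3 fell and 1 rose; the median log2 fold changes were -0.55, -1.87 and -1.18 in KO, DKO and DKO TAM livers. Scaled by library totals alone, 1 fell and 1 rose in KO, 4 fell and 0 rose in DKO and 3 fell and 0 rose in DKO TAM livers. Mbl1 and Mbl2 encode the mannose-binding lectins A and C, which recognise sugars on microbes, and Masp1 and Masp2 the proteases that they carry. Mbl2 had 699 and 596 CPM in KO livers, against 242 and 248 CPM in FF livers. It had 46.6 and 32.9 CPM in DKO livers, against 123 and 126 CPM in p53KO livers, and 72.8 and 59.7 CPM in DKO TAM livers, against 160.0 and 163 CPM in p53KO TAM livers. The groups are apart in each experiment, with KO above FF and both other deleted groups below their controls. Its log2 fold change was 1.40 ± 0.15 (adjusted p = 1.3e-05) in KO, -1.65 ± 0.16 (adjusted p = 3.8e-07) in DKO and -1.28 ± 0.16 (adjusted p = 3.5e-05) in DKO TAM livers. The difference between the changes, DKO less KO, was -3.05 ± 0.22 (adjusted p = 4.9e-07), the widest such gap among the 40 genes. Mbl1 did not share the rise: it had 125 and 115 CPM in KO livers, against 173 and 197 CPM in FF livers, with a log2 fold change of -0.63 ± 0.17 (adjusted p = 0.017), a call lost without KO replicate 1, KO replicate 2 or FF replicate 2 (adjusted p = 0.052, 0.11 and 0.13) and with library totals alone (0.11).

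Both proteases fell throughout. Masp1 had 95.5 and 94.8 CPM in KO livers, against 219 and 206 CPM in FF livers. It had 64.1 and 64.1 CPM in DKO livers, against 172 and 204 CPM in p53KO livers, and 85.7 and 78.6 CPM in DKO TAM livers, against 224 and 226 CPM in p53KO TAM livers. Every deleted library lay below every control library, and the log2 fold changes were -1.16 ± 0.12 (adjusted p = 8.3e-06) in KO, -1.55 ± 0.12 (adjusted p = 3.7e-08) in DKO and -1.45 ± 0.12 (adjusted p = 9.2e-07) in DKO TAM livers. Masp2 fell by 4.28-fold in DKO and 2.11-fold in DKO TAM livers; its fall in KO livers (-0.47 ± 0.13, adjusted p = 0.025) was lost without any 1 of the 4 libraries (adjusted p = 0.071 to 0.13). Exons of Masp2 share 1798 of its 3217 bases with Tardbp on the other strand, and reads were counted without strand in the KO and FF libraries, per the file headers, so its level is uncertain. Mbl1 stood at 104 and 132 CPM in DKO TAM livers, against 145 and 149.7 CPM in p53KO TAM livers, with a log2 fold change of -0.32 ± 0.16 (adjusted p = 0.19), which missed the threshold. It stood at 29.8 and 31.2 CPM in DKO livers, against 184 and 124 CPM in p53KO livers, a 5.06-fold fall.

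C3, the central protein of complement and the most abundant single complement mRNA here, fell in each experiment. For C3, Cfb and C4b the median log2 fold changes were -0.63, -1.18 and -0.82 in KO, DKO and DKO TAM livers. On library totals alone, 2 fell and 0 rose in KO, 3 fell and 0 rose in DKO and 3 fell and 0 rose in DKO TAM livers. C3 had 5675 and 6564 CPM in KO livers, against 16268 and 16341 CPM in FF livers. In the second experiment it had 6015 and 5599 CPM in DKO livers, against 13238 and 15996 CPM in p53KO livers. After tamoxifen it had 8840.2 and 12201 CPM in DKO TAM livers, against 38257 and 38576 CPM in p53KO TAM livers. The p53KO TAM libraries stand above all others, and the DKO TAM libraries lie below the lowest untreated control. These were folds of decrease of 2.66 in KO (log2 -1.41 ± 0.18, adjusted p = 7.1e-05), 2.52 in DKO (-1.33 ± 0.18, adjusted p = 1.5e-05) and 3.65 in DKO TAM livers (-1.87 ± 0.19, adjusted p = 4.2e-06). The DKO change less the KO change was 0.08 ± 0.25 (adjusted p = 0.86), and the DKO change less the DKO TAM change 0.54 ± 0.25 (adjusted p = 0.13); neither passed on the TMM scale, though that against DKO TAM did with library totals alone (adjusted p = 0.0066), with upper quartile scaling (0.047) and without DKO TAM replicate 2 (adjusted p = 0.024).

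Cfb, the protease of the alternative pathway convertase, had 747 and 812 CPM in KO livers, against 1152 and 1260.0 CPM in FF livers, a log2 fold change of -0.63 ± 0.13 (adjusted p = 0.0038). It fell by 2.11-fold in DKO and 1.68-fold in DKO TAM livers. C4b encodes complement C4, shared by the lectin and classical pathways. It had 855 and 1059 CPM in KO livers, against 1082 and 1375 CPM in FF livers, without overlap but with an adjusted p of 0.15. In the other experiments it fell by 2.27-fold (DKO) and 1.77-fold (DKO TAM). A near-identical copy, C4a, lies close to it and had 10.98 CPM in DKO and 27.9 CPM in p53KO livers, so reads of both genes may be split or lost.

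Of the 6 terminal pathway genes, which build the membrane attack complex, all fell in DKO livers, 4 fell in KO livers, and 5 fell and C6 rose in DKO TAM livers. The medians were -0.59, -2.25 and -0.91 in KO, DKO and DKO TAM livers. By totals alone, 2 fell and 1 rose in KO, 6 fell and 0 rose in DKO and 5 fell and 1 rose in DKO TAM livers. Hc encodes C5, whose cleavage starts the complex; C8a, C8b and C8g encode the 3 chains of C8; C9 forms the ring of the pore. C8b had 125 and 108 CPM in DKO livers, against 1125 and 1125 CPM in p53KO livers, and fell by 9.67-fold (-3.27 ± 0.15, adjusted p = 1.7e-10). C9 had 154 and 173 CPM in DKO livers, against 1046 and 1157 CPM in p53KO livers, a 6.73-fold fall. It had 417 and 597 CPM in KO livers, against 1203 and 1392 CPM in FF livers, a 2.56-fold fall. Each of these deleted libraries lies well below its controls. C8a fell by 5.24-fold and Hc by 4.31-fold in DKO livers. C8g had 26.4 and 27.6 CPM in DKO livers, against 90.1 and 142 CPM in p53KO livers, and fell 4.30-fold. In DKO TAM livers the falls of C9, C8a, C8b, Hc and C8g were 1.80-, 1.90-, 1.87-, 2.19- and 2.74-fold. For C8b the DKO change less the DKO TAM change was -2.37 ± 0.20 (adjusted p = 1.4e-06), and less the KO change -2.80 ± 0.20 (adjusted p = 4.4e-07).

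In KO livers the falls of Hc (-0.64 ± 0.17, adjusted p = 0.015), C8a (-0.62 ± 0.14, adjusted p = 0.0050) and C8b (-0.48 ± 0.14, adjusted p = 0.029) were smaller. That of Hc was lost without KO replicate 1 or FF replicate 2 (adjusted p = 0.15 and 0.18). That of C8a was lost without FF replicate 2 (adjusted p = 0.052). The call of C8b was lost without any 1 of the 4 libraries (adjusted p = 0.055 to 0.19) and with library totals alone (0.22). C8g had a log2 fold change of -0.55 ± 0.29 (adjusted p = 0.25) there. After tamoxifen the call of C8g was lost without p53KO TAM replicate 1 or p53KO TAM replicate 2 (adjusted p = 0.051 and 0.053).

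C6, which joins C5b to start the assembly, had 219 and 254 CPM in DKO TAM livers, against 119 and 110.2 CPM in p53KO TAM livers. Both DKO TAM libraries lie above both controls, a log2 fold change of 1.04 ± 0.16 (adjusted p = 3.1e-04), or 2.06-fold. They also lie below every untreated control library. C6 had 219 and 179 CPM in DKO livers, against 509 and 499.6 CPM in p53KO livers, a log2 fold change of -1.34 ± 0.16 (adjusted p = 3.2e-06). It had 423 and 573 CPM in KO livers, against 348 and 401 CPM in FF livers, with 0.41 ± 0.16 (adjusted p = 0.095). Its DKO change less its DKO TAM change was -2.38 ± 0.23 (adjusted p = 3.9e-06), and less its KO change -1.75 ± 0.22 (adjusted p = 7.8e-05).

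All 4 inhibitors of complement fell in DKO livers, by 1.94- to 2.79-fold, and Serping1 alone passed in KO and in DKO TAM livers. The medians were -0.16, -1.07 and -0.34 in KO, DKO and DKO TAM livers. Scaled by library totals alone, 0 fell and 1 rose in KO, 2 fell and 0 rose in DKO and 0 fell and 0 rose in DKO TAM livers. Serping1 encodes C1 inhibitor, which stops the proteases of the classical, lectin and contact pathways. It had 299 and 399.9 CPM in KO livers, against 512 and 568 CPM in FF livers, a log2 fold change of -0.63 ± 0.16 (adjusted p = 0.013) that was lost without KO replicate 1 or FF replicate 2 (adjusted p = 0.16 and 0.10). Serping1 fell by 2.06-fold in DKO and 1.46-fold in DKO TAM livers, the second call being lost without DKO TAM replicate 1, p53KO TAM replicate 1 or p53KO TAM replicate 2 (adjusted p = 0.17, 0.089 and 0.12). Cfi encodes factor I, which cleaves C3b and C4b, C4bp its cofactor C4-binding protein, and Vtn vitronectin, which blocks the terminal complex. Cfi had 322 and 339 CPM in DKO livers, against 656 and 624 CPM in p53KO livers, a 1.94-fold fall. C4bp had 191 and 165 CPM in DKO livers, against 453 and 538 CPM in p53KO livers, a 2.79-fold fall. Vtn had 667 and 620.1 CPM in DKO livers, against 1303 and 1446 CPM in p53KO livers, a 2.14-fold fall. Each pair of DKO libraries lay below both controls. In KO and DKO TAM livers none of these 3 passed. In KO livers Cfi had a log2 fold change of 0.27 ± 0.13 (adjusted p = 0.17), C4bp -0.27 ± 0.17 (adjusted p = 0.32) and Vtn -0.04 ± 0.14 (adjusted p = 0.87). In DKO TAM livers Cfi had -0.26 ± 0.13 (adjusted p = 0.17), C4bp -0.19 ± 0.17 (adjusted p = 0.48) and Vtn -0.41 ± 0.14 (adjusted p = 0.051), and there DESeq2 and limma-voom called Vtn lower (adjusted p = 0.019 and 0.031).

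All 5 genes of the contact system, which starts the intrinsic pathway on charged surfaces, fell in DKO and in DKO TAM livers, and the neighbours F11 and Klkb1 also fell in KO livers. The medians were -0.10, -1.79 and -0.68 in KO, DKO and DKO TAM livers. On library totals alone, 2 fell and 1 rose in KO, 4 fell and 0 rose in DKO and 2 fell and 0 rose in DKO TAM livers. F11 encodes coagulation factor XI, which activates factor IX, and Klkb1 plasma prekallikrein, which activates factor XII and frees bradykinin from kininogen. F11 had 48.5 and 70.4 CPM in KO livers, against 319 and 309 CPM in FF livers, a 5.29-fold fall (-2.40 ± 0.16, adjusted p = 8.0e-08), the largest among the 40 genes in that comparison. It had 27.6 and 32.1 CPM in DKO livers, against 309.5 and 285 CPM in p53KO livers, and 56.9 and 59.8 CPM in DKO TAM livers, against 192 and 189 CPM in p53KO TAM livers. All deleted libraries lie far below all controls. The falls were 9.97-fold in DKO and 3.26-fold in DKO TAM livers. Klkb1 had 209 and 219 CPM in KO livers, against 500.5 and 506 CPM in FF livers, a 2.36-fold fall. It had 45.1 and 40.9 CPM in DKO livers, against 454 and 481 CPM in p53KO livers, a 10.9-fold fall, and 171 and 129 CPM in DKO TAM livers, against 391 and 453 CPM in p53KO TAM livers, a 2.82-fold fall.

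F12, which encodes factor XII, had 273 and 251 CPM in KO livers, against 271 and 254 CPM in FF livers. The KO and FF libraries overlap, with a log2 fold change of -0.00 ± 0.12 (adjusted p = 0.999). It had 120.2 and 118 CPM in DKO livers, against 233 and 241 CPM in p53KO livers, a 1.99-fold fall, and 193 and 172 CPM in DKO TAM livers, against 238 and 238 CPM in p53KO TAM livers (-0.38 ± 0.12, adjusted p = 0.032), a call lost without DKO TAM replicate 2, p53KO TAM replicate 1 or p53KO TAM replicate 2 (adjusted p = 0.21, 0.14 and 0.13). Kng1 and Kng2 encode kininogens, the source of bradykinin, and are close copies that may share reads. Kng1 had 876 and 880.5 CPM in DKO livers, against 2932 and 3151 CPM in p53KO livers, a 3.46-fold fall, and Kng2 fell 2.57-fold. After tamoxifen Kng1 fell 1.60-fold and Kng2 1.38-fold; the call of Kng1 was lost without p53KO TAM replicate 2 (adjusted p = 0.064) and that of Kng2 without DKO TAM replicate 1, p53KO TAM replicate 1 or p53KO TAM replicate 2 (adjusted p = 0.22, 0.12 and 0.092). In KO livers their log2 fold changes were -0.10 ± 0.15 (adjusted p = 0.72) and 0.28 ± 0.14 (adjusted p = 0.19).

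The vitamin K-dependent genes, whose proteins bind membranes through carboxylated glutamates, all fell in DKO livers, while in KO livers Proz fell, Pros1 rose and the other 5 missed the threshold. In DKO TAM livers 5 of the 7 fell. The medians were -0.26, -1.95 and -0.49 in KO, DKO and DKO TAM livers. By totals alone, 1 fell and 1 rose in KO, 6 fell and 1 rose in DKO and 1 fell and 1 rose in DKO TAM livers. F2 encodes prothrombin, F7, F9 and F10 the factors VII, IX and X, Proc the anticoagulant protein C, Pros1 its cofactor protein S, and Proz protein Z, which helps to inhibit factor X. Proz had 244 and 251 CPM in KO livers, against 558 and 635 CPM in FF livers. It had 85.6 and 73.8 CPM in DKO livers, against 607 and 524 CPM in p53KO livers, and 182 and 172 CPM in DKO TAM livers, against 621 and 672 CPM in p53KO TAM livers. Its 2 libraries in each deleted group lie below every control library, and the falls were 2.41-fold in KO (adjusted p = 1.0e-05), 7.10-fold in DKO (3.4e-10) and 3.65-fold in DKO TAM livers (2.7e-07).

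F2 had 216 and 234 CPM in DKO livers, against 984 and 760.4 CPM in p53KO livers, a 3.88-fold fall. Proc had 78.5 and 91.7 CPM in DKO livers, against 429.9 and 315 CPM in p53KO livers, a 4.38-fold fall. F7, F9 and F10 fell 3.85-, 3.17- and 2.44-fold in the same comparison. After tamoxifen the falls of F2, F7, F9 and Proc were 1.60-, 1.47-, 1.39- and 1.40-fold, and F10 did not pass (-0.26 ± 0.17, adjusted p = 0.32). That of F2 was lost without DKO TAM replicate 2 or p53KO TAM replicate 2 (adjusted p = 0.053 and 0.065). That of F7 was lost without any 1 of the 4 libraries (adjusted p = 0.060 to 0.27) and with DESeq2 (0.061). That of F9 was lost without DKO TAM replicate 2, p53KO TAM replicate 1 or p53KO TAM replicate 2 (adjusted p = 0.095, 0.059 and 0.10), and that of Proc without DKO TAM replicate 2, p53KO TAM replicate 1 or p53KO TAM replicate 2 (adjusted p = 0.17, 0.11 and 0.13). All 4 were lost with library totals alone. In KO livers the log2 fold changes of F2, F7, F9, F10 and Proc lay between -0.41 and 0.13, and none passed.

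Pros1 was the least lowered member in DKO livers and rose in KO livers. It had 244 and 249 CPM in KO livers, against 176 and 180.1 CPM in FF livers, a log2 fold change of 0.47 ± 0.12 (adjusted p = 0.015). The groups do not overlap, yet the call was lost without any 1 of the 4 libraries (adjusted p = 0.056 to 0.092). In the second experiment it had 129 and 126 CPM in DKO livers, against 154 and 176 CPM in p53KO livers (-0.38 ± 0.12, adjusted p = 0.016). That fall was lost without DKO replicate 2, DKO replicate 3 or p53KO replicate 2 (adjusted p = 0.058, 0.085 and 0.11) and with upper quartile scaling (0.28), and library totals alone turned it into a rise of 0.39 (adjusted p = 0.0085). After tamoxifen it had 282 and 279 CPM in DKO TAM livers, against 244 and 215 CPM in p53KO TAM livers (0.29 ± 0.12, adjusted p = 0.11), and it rose with library totals alone (9.0e-04). Its DKO change less its KO change was -0.84 ± 0.17 (adjusted p = 0.0024), a call lost with library totals alone (-0.33, adjusted p = 0.15).

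F5 encodes factor V, the cofactor of factor X in making thrombin, and F13b the carrier subunit of factor XIII, which crosslinks fibrin. F5 had 833 and 867 CPM in DKO livers, against 3079 and 3420.4 CPM in p53KO livers, a 3.82-fold fall, and 1969 and 1613 CPM in DKO TAM livers, against 2756 and 3445 CPM in p53KO TAM livers, a 1.73-fold fall. F13b had 119.7 and 105 CPM in DKO livers, against 301 and 309.9 CPM in p53KO livers, and fell 2.71-fold. F5 had 2234 and 2223 CPM in KO livers, against 2926 and 3250.4 CPM in FF livers, and its groups overlapped in none of the 3 experiments. In KO livers edgeR called neither (adjusted p = 0.055 for F5 and 0.062 for F13b). Both had an unadjusted p under 0.05, and DESeq2 and limma-voom each called F5 (adjusted p = 0.020 and 0.040). After tamoxifen the log2 fold change of F13b was -0.35 ± 0.13 (adjusted p = 0.071). F5 shares 262 exon bases with Gm16548 in the annotation used here. Scaled by library totals alone, 0 fell and 0 rose in KO, 2 fell and 0 rose in DKO and 1 fell and 0 rose in DKO TAM livers.

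The 3 fibrinogen genes, which encode the alpha, beta and gamma chains of the same molecule, fell together in DKO livers on the TMM scale, and at 24 hours after tamoxifen Fga rose and Fgg and Fgb missed the threshold with values above 0. The medians were 0.29, -0.97 and 0.57 in KO, DKO and DKO TAM livers. On library totals alone, 0 fell and 1 rose in KO, 1 fell and 0 rose in DKO and 0 fell and 3 rose in DKO TAM livers. Fga, Fgb and Fgg lie side by side on chromosome 3 within 41895 bases (83007896 to 83049790, mm10). Their RefSeq promoter windows (GRCm38.p6, 250 bases before to 50 after the annotated start) are shown because these genes moved together, with that of F11, the largest fall in KO livers, as a contrast. Capitals mark exact matches, on either strand, of TATAAA (the TATA box), TTGCNNAA (C/EBP), CAAAGTCCA (HNF4), CTGGGAA (the core of an interleukin 6 response element) or TTCCNGGAA (STAT3). The Fga window is chr3:83025903-83026202 on the plus strand, that of Fgb chr3:83049814-83050113 on the minus strand, that of Fgg chr3:83007474-83007773 on the plus strand and that of F11 chr8:45261982-45262281 on the minus strand. In the count files Fgb starts 24 bases and Fgg 123 bases beyond the end of its window, and Fga and F11 start at the base the windows are built on.
Fga: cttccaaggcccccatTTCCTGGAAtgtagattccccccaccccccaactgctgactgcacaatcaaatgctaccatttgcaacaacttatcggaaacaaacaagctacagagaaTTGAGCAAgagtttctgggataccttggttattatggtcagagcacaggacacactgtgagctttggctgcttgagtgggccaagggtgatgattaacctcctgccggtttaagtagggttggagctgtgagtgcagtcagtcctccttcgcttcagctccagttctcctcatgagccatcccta
Fgb: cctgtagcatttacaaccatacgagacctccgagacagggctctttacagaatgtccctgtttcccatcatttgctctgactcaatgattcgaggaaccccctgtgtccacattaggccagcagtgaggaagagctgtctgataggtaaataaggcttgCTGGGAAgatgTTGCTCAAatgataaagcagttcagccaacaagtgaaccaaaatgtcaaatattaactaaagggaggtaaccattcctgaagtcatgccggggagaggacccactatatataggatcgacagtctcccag
Fgg: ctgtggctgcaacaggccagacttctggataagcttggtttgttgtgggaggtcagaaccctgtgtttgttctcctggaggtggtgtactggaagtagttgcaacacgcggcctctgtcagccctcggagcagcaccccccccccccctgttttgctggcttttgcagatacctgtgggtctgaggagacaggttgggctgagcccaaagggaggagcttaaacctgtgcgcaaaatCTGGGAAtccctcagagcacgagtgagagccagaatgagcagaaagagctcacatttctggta
F11: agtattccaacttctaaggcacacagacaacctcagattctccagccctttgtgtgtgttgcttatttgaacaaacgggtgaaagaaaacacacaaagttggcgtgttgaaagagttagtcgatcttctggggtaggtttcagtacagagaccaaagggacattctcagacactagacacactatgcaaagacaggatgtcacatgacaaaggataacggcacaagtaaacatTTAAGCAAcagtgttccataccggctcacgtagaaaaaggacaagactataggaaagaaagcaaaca

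In the Fga window lie TTGAGCAA and TTCCTGGAA. The Fgb window holds TTGCTCAA and CTGGGAA, and the Fgg window CTGGGAA alone. That of F11 holds TTAAGCAA alone. No 2 matches overlap in these 4 windows. Windows were given for 32 of the 40 genes, and 1 was used for each. The shares over all windows count every window, so a gene with several counts more than once, and they include the members. TTGCNNAA was in 11 of 32 (34.4%), against 10.8% of all 32851 windows, and CTGGGAA in 7 (21.9%), against 11.1%. TTCCNGGAA was in 2 (6.25%), against 1.15%, TATAAA in 5 (15.6%), against 13.6%, and CAAAGTCCA in 0, against 0.475%. These are matches of letters in a window, and binding of a factor was not measured.

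After tamoxifen, Fga had 10702 and 16677 CPM in DKO TAM livers, against 9671 and 8407 CPM in p53KO TAM livers. Fgb had 10187 and 16613 CPM in DKO TAM livers, against 12209.7 and 10558 CPM in p53KO TAM livers. Fgg had 7192 and 11218 CPM in DKO TAM livers, against 6498 and 5925 CPM in p53KO TAM livers. For Fga and Fgg both DKO TAM libraries lie above both controls, for Fgb they span them, and for all 3 DKO TAM replicate 2 is the highest library of the study. The log2 fold changes were 0.60 ± 0.19 (adjusted p = 0.035) for Fga, 0.24 ± 0.21 (adjusted p = 0.48) for Fgb and 0.57 ± 0.20 (adjusted p = 0.060) for Fgg. The call of Fga was lost without DKO TAM replicate 2, p53KO TAM replicate 1 or p53KO TAM replicate 2 (adjusted p = 0.41, 0.093 and 0.22) and when only these 4 libraries were fitted (0.076). Fgg was called higher with DESeq2 (0.032), with upper quartile scaling (0.047) and without DKO TAM replicate 1 (0.0063), and all 3 with library totals alone.

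In DKO livers each chain fell. Fga had 3253 and 3049 CPM in DKO livers, against 6093 and 5634 CPM in p53KO livers. Fgb had 3318 and 3473 CPM in DKO livers, against 9184 and 7130.1 CPM in p53KO livers. Fgg had 2282 and 2107 CPM in DKO livers, against 4964 and 3635 CPM in p53KO livers. Both DKO libraries lie below both controls for each chain, with log2 fold changes of -0.90 ± 0.19 (adjusted p = 8.3e-04) for Fga, -1.26 ± 0.21 (adjusted p = 1.1e-04) for Fgb and -0.97 ± 0.20 (adjusted p = 7.9e-04) for Fgg. With library totals alone the calls of Fga and Fgg were lost (adjusted p = 0.53 and 0.36). The DKO change less the DKO TAM change was -1.49 ± 0.27 (adjusted p = 6.7e-04) for Fga, -1.50 ± 0.30 (adjusted p = 0.0015) for Fgb and -1.54 ± 0.29 (adjusted p = 9.3e-04) for Fgg. In KO livers none of the 3 was called by edgeR, DESeq2 or limma-voom, and none had an unadjusted p under 0.05. Fga had 6835 and 7489 CPM in KO livers, against 5991 and 5737 CPM in FF livers. Fgb had 6822 and 7883 CPM in KO livers, against 9493 and 8029 CPM in FF livers. Fgg had 5201 and 5385 CPM in KO livers, against 4681 and 3964 CPM in FF livers. The KO libraries lie above FF for Fga and Fgg and below for Fgb, and library totals alone called Fga higher (adjusted p = 0.039).

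**Figure D3:**
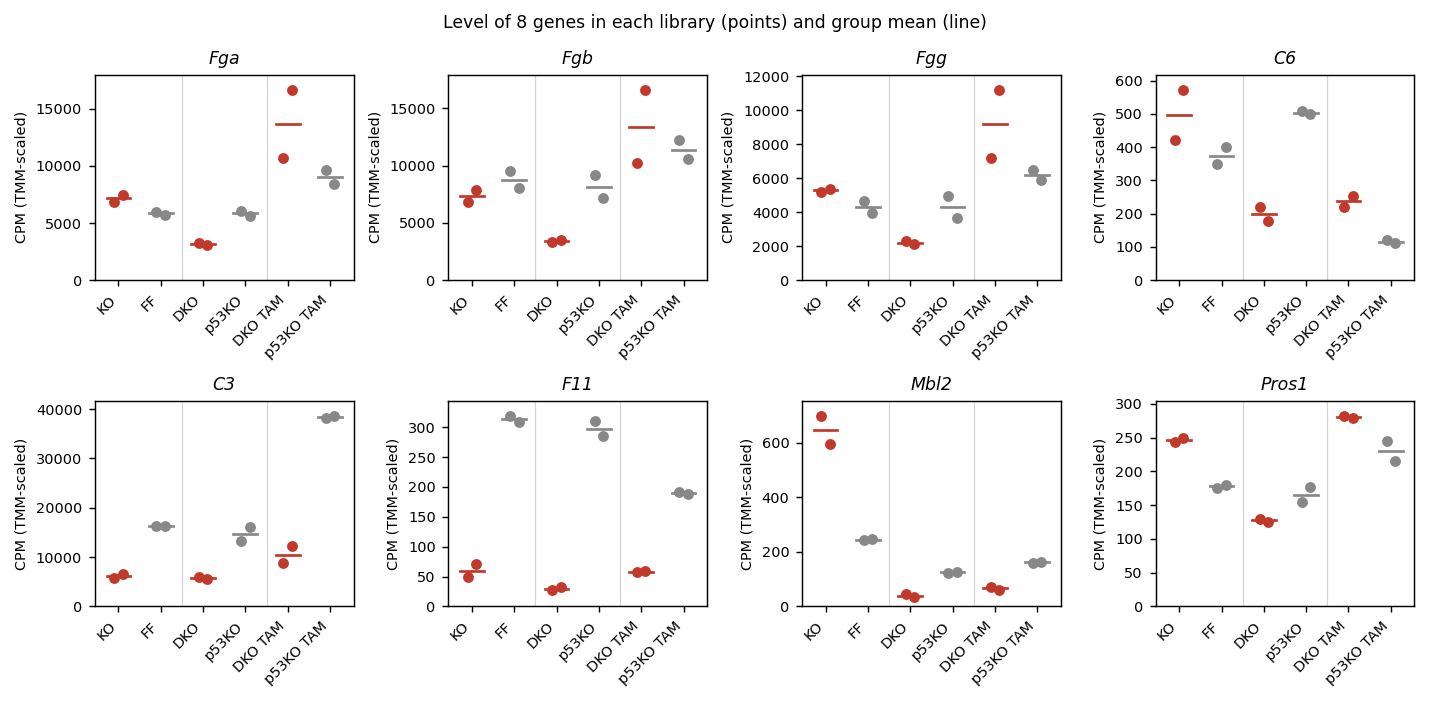
Points are the CPM of each library and lines the group means, on axes that start at 0, for the 3 fibrinogen chains, C6, C3, F11, Mbl2 and Pros1; red marks livers with Cre and grey their controls, with grey lines between the experiments. C6 and 2 of the 3 fibrinogen chains have both DKO TAM libraries above both p53KO TAM libraries, and Mbl2 is above its control in KO livers alone.

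Of the regulators of thrombin and fibrin, Serpinc1 encodes antithrombin, Serpind1 heparin cofactor II, another thrombin inhibitor, and Hrg histidine-rich glycoprotein, which binds heparin and plasminogen. All 3 fell in DKO and in DKO TAM livers, with medians of -0.24, -1.36 and -0.97 in KO, DKO and DKO TAM livers. By totals alone, 0 fell and 0 rose in KO, 2 fell and 0 rose in DKO and 2 fell and 0 rose in DKO TAM livers. Hrg had 248 and 231 CPM in DKO livers, against 1168 and 1246 CPM in p53KO livers, a 5.04-fold fall. It had 1128 and 1083 CPM in DKO TAM livers, against 2265 and 2577 CPM in p53KO TAM livers, a 2.19-fold fall. Serpinc1 had 575 and 553 CPM in DKO livers, against 1408 and 1484 CPM in p53KO livers, a 2.56-fold fall. It had 1062 and 1089 CPM in DKO TAM livers, against 1381 and 1459 CPM in p53KO TAM livers, with -0.40 ± 0.13 (adjusted p = 0.046), a call lost without any 1 of the 4 libraries (adjusted p = 0.11 to 0.21) and with upper quartile scaling (0.063). Serpind1 had 223 and 202 CPM in DKO livers, against 376 and 398 CPM in p53KO livers, and 249.8 and 194 CPM in DKO TAM livers, against 437 and 429.7 CPM in p53KO TAM livers. Its falls were 1.82- and 1.95-fold, and the DKO change less the DKO TAM change was 0.10 ± 0.19 (adjusted p = 0.73). With library totals alone the call of Serpind1 in DKO livers was lost (0.52). In KO livers edgeR called none of the 3 (log2 -0.24 ± 0.13, -0.02 ± 0.14 and -0.44 ± 0.15); Hrg alone had an unadjusted p under 0.05, and DESeq2 and limma-voom called it (adjusted p = 0.026 and 0.041).

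The 3 fibrinolysis genes fell in DKO and DKO TAM livers, and 2 of them in KO livers, with medians of -0.48, -1.63 and -0.84 in KO, DKO and DKO TAM livers. Scaled by library totals alone, 1 fell and 0 rose in KO, 3 fell and 0 rose in DKO and 3 fell and 0 rose in DKO TAM livers. Plg encodes plasminogen, Serpinf2 the plasmin inhibitor alpha 2-antiplasmin, and Cpb2 the carboxypeptidase TAFI, which protects fibrin. Plg had 755 and 739.7 CPM in DKO livers, against 2952 and 2693 CPM in p53KO livers, and 1900.4 and 1955 CPM in DKO TAM livers, against 3315 and 3610.1 CPM in p53KO TAM livers. The groups are well apart, with falls of 3.78- and 1.80-fold. Serpinf2 fell 2.43- and 1.74-fold, and Cpb2 3.10- and 1.79-fold. Serpinf2 had 177 and 219 CPM in KO livers, against 353 and 339.6 CPM in FF livers, and fell 1.75-fold (-0.80 ± 0.14, adjusted p = 7.6e-04). Plg fell by less in KO livers (-0.48 ± 0.14, adjusted p = 0.028), a call lost without any 1 of the 4 libraries (adjusted p = 0.076 to 0.16), and Cpb2 overlapped its controls (-0.06 ± 0.17, adjusted p = 0.84).

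Most members were lowered further in DKO livers than in either other deleted group. The DKO change less the KO change was called negative for 35 of 40 genes and positive for 0, where 12.9% and 9.75% of all genes were called (22.7% in all); the 5 not called were C3, Cfb, Serping1, Masp1 and Serpinf2. The DKO change less the DKO TAM change was called negative for 31 and positive for 0, where 14.2% and 13.4% of all genes were called (27.6% in all). With library totals alone, 27 were called negative and 0 positive against KO, and 23 and 2 against DKO TAM. The 19 other hepatocyte mRNAs moved likewise on the TMM scale, with 18 called negative against KO and 13 against DKO TAM, and 0 positive. Their medians were -1.02 and -0.93, beside -1.41 and -1.05 over the 40 genes. The first contrast also differs in p53 and age, and the second in the kind of Cre, tamoxifen and the time since deletion. Both contrasts use the p53KO and DKO libraries and are not independent of each other.

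**Figure D4:**
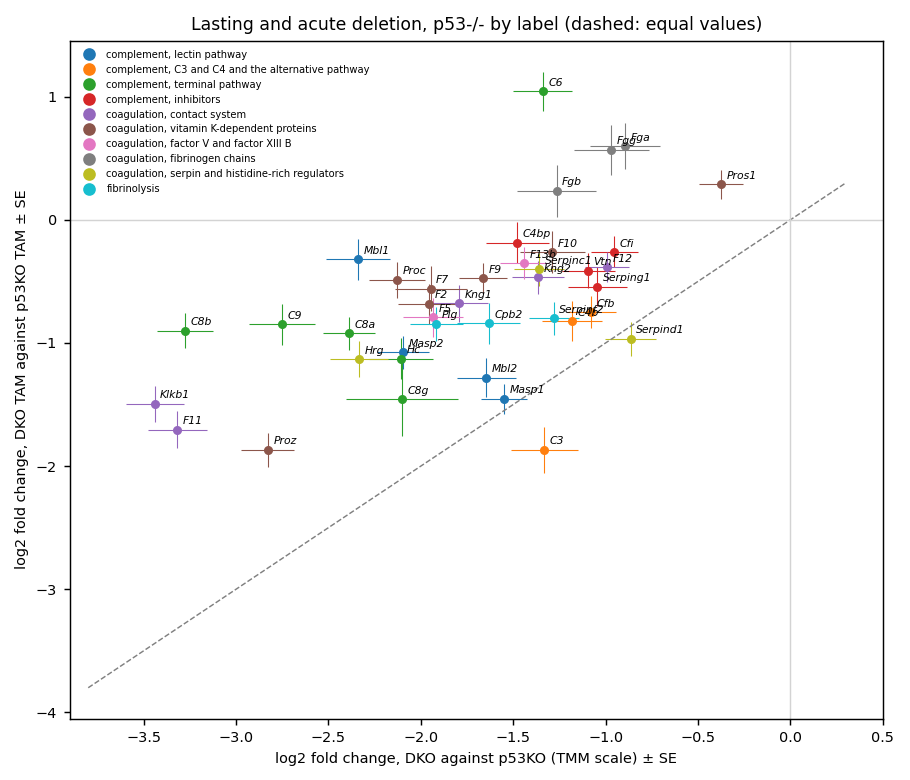
Each point is 1 gene, with its log2 fold change in DKO against p53KO livers across and in DKO TAM against p53KO TAM livers upwards, both with SE and coloured by role; on the dashed line the values are equal. C3 (-1.33 across, -1.87 up) and Serpind1 (-0.86 and -0.97) lie below the line, and C6 (-1.34 and 1.04) lies farthest above it.

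Several members are neighbours in the genome: with gaps of at most 200000 bases, 15 of the 40 form 6 clusters. F11 and Klkb1 lie within 53666 bases on chromosome 8 (45241170 to 45294835, mm10) and both fell in every comparison. The nearest tested genes on either side of them moved apart: Cyp4v3, a fatty acid hydroxylase 10967 bases away, fell (log2 -0.55, -1.28 and -0.61 in KO, DKO and DKO TAM livers), and Mtnr1a, the melatonin receptor 152664 bases away, rose (1.95, 2.85 and 1.87). Mtnr1a was low in the controls, at means of 2.78, 1.93 and 1.36 CPM in FF, p53KO and p53KO TAM livers. Beside the fibrinogen cluster, Plrg1, a splicing factor 5748 bases from it, rose in every comparison (log2 0.57, 0.83 and 0.70). Next to F7, F10 and Proz (chromosome 8, 13026034 to 13075006), Pcid2 was not called in any (0.15, 0.15 and 0.23), though Proz fell in all 3. C8a and C8b (chromosome 4, 104766317 to 104876398) lie next to Dab1, which was called higher in DKO and DKO TAM livers. Dab1 stood at 5.41 CPM in DKO and 0.449 CPM in p53KO livers. The p53KO mean is near the counting floor of 3 counts, which is 0.423 and 0.534 CPM in the p53KO libraries. Beside Hrg, Kng2 and Kng1 (chromosome 16, 22951072 to 23082078), Fetub, which encodes the plasma protein fetuin B, fell in DKO and DKO TAM livers (-2.99 and -1.12) and had -0.06 (adjusted p = 0.81) in KO livers. Of the 5 tested genes that lie between C4b and Cfb (chromosome 17, 34728381 to 34862514), C4a alone was called, lower in DKO livers.

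Beyond the 40 genes, 29 tested genes act in complement or are its receptors and cell surface inhibitors. Of these, 7 fell and none rose in KO, 10 fell and 10 rose in DKO, and 4 fell and 4 rose in DKO TAM livers. Across all tested genes 7.88% fell and 6.92% rose in KO, and 25.7% moved each way in DKO livers. In DKO TAM livers 10.1% fell and 8.61% rose. The counts in DKO and DKO TAM livers are thus not far above these shares. The median was 0.06 in KO, above 0 although 7 fell, -0.15 in DKO and 0.02 in DKO TAM livers. C2, the protease of the classical convertase, lies 88 bases from Cfb and fell in KO, DKO and DKO TAM livers (log2 -0.65, -1.47 and -0.89). The C1s protease gene C1s fell likewise (-0.60, -1.29 and -0.57), as did the related C1rl (-0.85, -1.86 and -0.83) and Cd59a, a membrane inhibitor of the terminal complex (-0.50, -1.94 and -0.57). C1s and Cd59a have close copies in the mouse, and reads may be shared among such copies. C3ar1, the receptor of the anaphylatoxin C3a, rose in DKO and DKO TAM livers (2.56 and 0.81), and Vsig4, a C3b receptor of liver macrophages, rose in DKO TAM livers (0.60 ± 0.11, adjusted p = 0.0017). Vsig4 is itself on the list of macrophage markers, and is the 1 of 11 that rose in DKO TAM livers. Summed macrophage markers, with Vsig4 included, lay at 893 to 907 CPM in DKO TAM, against 722 to 787 CPM in p53KO TAM livers. Their part in the rises of C3ar1 and Vsig4 was not tested. Scaling by library totals alone gave 1 lower and 6 higher in KO, 9 and 17 in DKO, and 2 and 10 in DKO TAM livers.

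A further 26 tested genes act in coagulation or fibrinolysis. Of these, 2 fell and 2 rose in KO, 7 fell and 12 rose in DKO, and 4 fell and 1 rose in DKO TAM livers, with medians of -0.03, 0.65 and -0.08. Of all tested genes, 7.88% fell and 6.92% rose in KO, 25.7% and 25.7% in DKO, and 10.1% and 8.61% in DKO TAM livers, so the KO counts are near the share of all genes and the count of rises in DKO TAM livers is below it. Pzp, a broad protease inhibitor of mouse plasma, fell in all 3 (log2 -0.61, -2.23 and -1.38), with 7986 CPM in DKO TAM and 20786 CPM in p53KO TAM livers. Serpina10, which encodes the protein Z-dependent inhibitor of factor X, stood at 141 CPM in DKO TAM and 277 CPM in p53KO TAM livers and fell there (-0.98 ± 0.17, adjusted p = 8.7e-04), as Proz did. Habp2, a protease that can activate factor VII, fell in DKO and DKO TAM livers (-1.22 and -0.67). In DKO livers the urokinase receptor gene Plaur (3.95), the tissue plasminogen activator Plat (4.25), its cofactor Anxa2 (3.39) and the platelet and matrix protein Thbs1 (2.82) rose, while the plasminogen gene Plg fell. Scaling by library totals alone gave 1 lower and 4 higher in KO, 2 and 16 in DKO, and 2 and 3 in DKO TAM livers.

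Of the 9 genes of the vitamin K cycle and of factor processing and export, 2 fell and 1 rose in KO, 5 fell and 1 rose in DKO and 3 fell in DKO TAM livers. Shares over all tested genes were 7.88% lower and 6.92% higher in KO and 25.7% each way in DKO livers. In DKO TAM livers they were 10.1% and 8.61%. Ggcx, the gamma-glutamyl carboxylase, had 46.4 CPM in DKO and 120.0 CPM in p53KO livers (-1.37 ± 0.16, adjusted p = 3.1e-06). It had 74.6 CPM in DKO TAM and 147 CPM in p53KO TAM livers (-0.98 ± 0.16, adjusted p = 4.8e-04), and its log2 fold change in KO livers was -0.25 ± 0.16 (adjusted p = 0.33). Vkorc1, the vitamin K epoxide reductase, fell in DKO (-1.19) and DKO TAM livers (-1.22). Lman1, the cargo receptor that carries factors V and VIII out of the endoplasmic reticulum, fell in all 3 (-0.45, -1.01 and -0.51), and Furin, the protease that trims many of these proteins, fell in KO and DKO livers (-0.70 and -1.20). The gene that rose was Nqo1, a quinone reductase (1.34 in KO and 1.47 in DKO livers). With library totals alone, 1 fell and 3 rose in KO, 3 fell and 3 rose in DKO, and 2 fell and 1 rose in DKO TAM livers.

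Of 20 transcription factors and receptors known to act on promoters of this kind, 15 fell in DKO, 7 in KO and none in DKO TAM livers. Among all tested genes 25.7% fell in DKO, 7.88% in KO and 10.1% in DKO TAM livers. Median log2 fold changes of the 20 were -0.79 in DKO, -0.34 in KO and -0.11 in DKO TAM livers. Cebpa, a C/EBP factor, had 58.5 CPM in DKO and 214 CPM in p53KO livers (-1.88 ± 0.17, adjusted p = 2.7e-07). Foxa1, which opens chromatin at liver genes, had 20.5 CPM in DKO and 59.6 CPM in p53KO livers (-1.54 ± 0.16, adjusted p = 8.8e-07), and Il6ra, the interleukin 6 receptor, had 36.4 CPM in DKO and 68.97 CPM in p53KO livers (-0.92 ± 0.16, adjusted p = 2.0e-04). The bile acid receptor Nr1h4, the nuclear receptor Nr5a2 and the partner receptor Rxra fell there too (-1.15, -0.97 and -0.86). In KO livers Cebpa, Foxa1, Il6ra and Rxra were among the 7 that fell (-0.55, -0.90, -0.59 and -0.69). In DKO TAM livers edgeR and limma-voom called none of the 20, DESeq2 called 1 higher, and 4 lower and 1 higher had an unadjusted p under 0.05. Cebpa had 111 CPM in DKO TAM and 143 CPM in p53KO TAM livers (-0.37 ± 0.17, adjusted p = 0.15). With library totals alone, 3 fell in KO, 5 fell and 3 rose in DKO, and 5 rose in DKO TAM livers.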

How the data were processed

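The deposited files hold raw counts of reads per gene, which the authors made from total RNA of liver tissue with a stranded kit, per the labels' protocols. The submitters' processing notes name CASAVA 1.82, HISAT2 and featureCounts, with build mm10 (GRCm38). Per the file headers of the KO and FF libraries, featureCounts 1.6.4 counted exon reads per gene with its default options, which ignore strand; the options for the other 8 libraries are not given in the sources used here. Each sample's group comes from its title.

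The 12 tables of 23420 genes were joined by gene symbol. Genes were kept by filterByExpr with a minimum count of 10, which left 13693 holding 99.9% of counts, and were scaled by TMM. One model with a mean for each of the 6 groups (6 residual degrees of freedom) was fitted with edgeR 4.0.16 (R 4.3.3), and each comparison was tested with the quasi-likelihood F test, adjusted over all tested genes by Benjamini-Hochberg with a threshold of 0.05. Standard errors were derived from each gene's F statistic. The fit was tested on simulated data. CPM values come from TMM-scaled library sizes, and CPM per kb divides them by the gene length in the files. Alternatives were other scalings, filters, a stricter threshold, DESeq2 1.42.0, limma-voom 3.58.1, fits of the compared libraries alone, a replicate block and leaving out each library. The counting floor of 3 counts was not reached by any member.

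The 40 members and all gene lists were chosen with earlier results of these data known. All members are named; of the other lists, up to 6 genes with the smallest p in a comparison; and for members that lie within 200000 bases of each other, the nearest tested genes on either side. Some genes that this rule names are not reported here. Promoter windows come from RefSeq for GRCm38.p6.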

Additional observations from a re-analysis of the deposited data

Results flagged for a closer look

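The change in DKO livers differed from that in KO livers for 35 of the 40 genes, by edgeR's test of the difference between the 2 log2 fold changes (adjusted p under 0.05). In each the DKO change was the lower, and the difference below is the DKO change less the KO change on the log2 scale, 2 libraries a group. For the lectin pathway, it was -1.71 for Mbl1, -3.05 for Mbl2 and -1.63 for Masp2. Within C3, C4 and the alternative pathway, it was -0.82 for C4b. In the terminal pathway, it came to -1.46 for Hc, -1.75 for C6, -1.77 for C8a, -2.80 for C8b, -1.55 for C8g and -1.39 for C9. For the complement inhibitors, it was -1.22 for Cfi, -1.21 for C4bp and -1.05 for Vtn. Within the contact system, it was -0.92 for F11, -0.99 for F12, -2.20 for Klkb1, -1.70 for Kng1 and -1.64 for Kng2. In the vitamin K-dependent proteins, it came to -1.73 for F2, -1.67 for F7, -1.41 for F9, -1.42 for F10, -1.72 for Proc, -0.84 for Pros1 and -1.56 for Proz. For factor V and factor XIII, it was -1.46 for F5 and -1.06 for F13b. Within fibrinogen, it was -1.18 for Fga, -1.01 for Fgb and -1.26 for Fgg. In the thrombin inhibitors and Hrg, it came to -1.12 for Serpinc1, -0.85 for Serpind1 and -1.89 for Hrg. For fibrinolysis, it was -1.44 for Plg and -1.57 for Cpb2. Of the 19 other hepatocyte mRNAs, 18 were called in the same direction by this test. The groups also differ in p53 and age. Library totals alone ended the calls of C4b, C8g, F11, Pros1, Fga, Fgb, Fgg and Serpind1 (edgeR adjusted p = 0.054 to 0.28). The SE and adjusted p of the genes that turned direction stand with their levels above. The calls of C4b, C8g and Fgb were each lost with several of the 8 libraries left out singly (edgeR adjusted p = 0.055 to 0.10, 0.051 to 0.098 and 0.053 to 0.089 where lost), and that of F11 without KO replicate 2 (0.058).

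The change in DKO livers differed from that in DKO TAM livers for 31 of the 40 genes by the same test, again with the DKO change the lower in each. The values are the DKO change less the DKO TAM change. For the lectin pathway, this was -2.02 for Mbl1 and -1.02 for Masp2. Within the terminal pathway, values were -0.98 for Hc, -2.38 for C6, -1.47 for C8a, -2.37 for C8b and -1.90 for C9. For the complement inhibitors, this was -0.69 for Cfi, -1.29 for C4bp and -0.68 for Vtn. Within the contact system, values were -1.61 for F11, -0.61 for F12, -1.95 for Klkb1, -1.11 for Kng1 and -0.90 for Kng2. For the vitamin K-dependent proteins, this was -1.27 for F2, -1.39 for F7, -1.19 for F9, -1.03 for F10, -1.64 for Proc, -0.66 for Pros1 and -0.96 for Proz. Within factor V and factor XIII, values were -1.14 for F5 and -1.09 for F13b. For fibrinogen, this was -1.49 for Fga, -1.50 for Fgb and -1.54 for Fgg. Within the thrombin inhibitors and Hrg, values were -0.96 for Serpinc1 and -1.20 for Hrg. For fibrinolysis, this was -1.07 for Plg and -0.79 for Cpb2. The call of Cpb2 was lost with several of the 8 libraries left out singly (edgeR adjusted p = 0.059 to 0.082 where lost), and that of Vtn without DKO replicate 3 and without p53KO TAM replicate 1 (0.061 to 0.073). Of the 19 other hepatocyte mRNAs, 13 were called lower by this test. Library totals alone ended the calls of Hc, Cfi, Vtn, F12, Kng2, F10, Pros1 and Cpb2 (edgeR adjusted p = 0.053 to 0.43). On that scale C3 and Serpind1 were called with the DKO change the higher (0.0066 and 0.046). Both sets of differences use the same DKO and p53KO libraries.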

How the results depend on the processing

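On the TMM scale, 17 members were called in KO, 40 in DKO and 31 in DKO TAM livers, with 35 differences against KO and 31 against DKO TAM. In KO livers 10 stayed under an adjusted p of 0.01. With 1 library left out, 9 to 14 were called in KO, 39 to 40 in DKO and 20 to 28 in DKO TAM livers, and 31 to 35 and 29 to 32 of the differences. The lowest counts came without FF replicate 2 (9) and without p53KO TAM replicate 2 (20); without KO replicate 1 the count was 11. The other alternatives left these 5 counts within 1.5 times. One gene turned: Pros1 in DKO livers had 0.39 with library totals alone. The cause was not tested. Of 200 single results (40 genes in 5 comparisons), library totals alone ended the call of 37 and gave a call to 9.

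By the numbers in the descriptions, DKO 2 and 3 are numbered 1 and 2. Deviations of same-numbered libraries from their group means had correlations over genes of 0.11, -0.07 and -0.01 in the KO, DKO and DKO TAM experiments. With 2 libraries a group, the deviations of a group mirror each other, so these values cannot show whether libraries are paired. The main fit did not pair them. With that replicate number as a block, 16, 40, 29, 35 and 31 members were called, and the block ended the calls of Plg in KO livers (edgeR adjusted p = 0.056) and of Fga and Serpinc1 in DKO TAM livers (0.072 and 0.077). At 2 libraries a group, a p that misses the threshold does not show that a gene did not differ. The calls of Masp2, C8b, Pros1 and Plg in KO livers and of F7 and Serpinc1 in DKO TAM livers were each lost without any 1 of their 4 libraries.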
